A study of Homo sapiens with 21 samples.

Results

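RUNX1 binding was compared between the mutant and the wild-type protein of the same cells in 2 Jurkat clones that carry G365R, a missense change of RUNX1. Jurkat is an established human T-cell leukaemia line. The members are the 4 peak lists whose labels give the genotype G365R and an antibody: 2 HA lists, in which the tag marks the mutant protein, and 2 TY1 lists, in which it marks the wild-type protein. They are 4 of 14 lists in the series, and each replicate number stands for 1 clone, with its HA and its TY1 list. The single WT clone, with wild-type RUNX1 under both tags and 1 list per tag, is set beside them throughout, because it holds the same pair of antibodies without a mutant protein. All groups were untreated knock-in single clones, fixed for 15 min with a stop of 5 min, so that a G365R group is 2 clones and the WT group is 1 clone. Libraries labelled as controls, with no antibody, have no list analysed here. No expression was measured, so markers of the cell type could not be checked.

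RUNX1 is a transcription factor of blood cell development. Its Runt domain contacts DNA together with the partner CBFB, and the remainder of the protein recruits activators and repressors. In T-cell leukaemia it binds enhancers and promoters together with other lineage factors. G365R replaces 1 amino acid outside the Runt domain, toward the end of the protein, whereas the other mutant genotypes of the series, R232fs and Y287X, truncate it. Regions are named here by their hg19 position, counted from 1, since no gene annotation or sequence of that build was at hand.

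The HA lists held 30609 and 30563 peaks on chromosomes 1 to 22 and X, and the TY1 lists of the same clones 57378 and 61793. Peak lists do not carry the depth of a library. The nearest measure, the commonest local background solved from the deposited values, was 3.33 and 3.22 fragments in the HA lists and 3.55 and 4.54 in the TY1 lists, and 4.59 and 4.61 in the HA and TY1 lists of the WT clone. The summit pileup solved in the same way was a whole number, within 0.05, for 100% of peaks in both HA lists and for 8.08% in the first TY1 list and 6.84% in the WT TY1 list, so those 2 lists hold scaled pileups. The part of depth and of this scaling in the results below was not tested.

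Mutant RUNX1 gave fewer peaks than wild-type RUNX1 in both clones, over all peaks and among those of a fold of at least 3, 5, 10, 20 and 50. The ratio of HA to TY1 peaks was 0.533 in the first clone and 0.495 in the second, with a mean of 0.514. The WT clone, with 37472 HA and 59452 TY1 peaks, had a ratio of 0.630, lower than 1 as well and above both G365R values. For peaks of a deposited fold enrichment of 5 or more, 9786 and 10657 HA peaks stood against 20211 and 19918 TY1 peaks, ratios of 0.484 and 0.535 with a mean of 0.509, where the WT clone gave 0.591. At a fold of 10 or more the mean ratio was 0.444, where the WT clone gave 0.546, and at 20 or more it was 0.387 (0.357 and 0.420 in the clones), and the WT clone gave 0.540.

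The single highest peaks followed the opposite order. The highest fold of a list was 89.3 and 80.3 for HA against 78.4 and 67 for TY1, a mean difference of 12.1, and the WT clone differed in the same direction by 11.3. Peaks of fold 50 or more numbered 29 in each HA list and 71 and 53 in the TY1 lists, and 30 and 29 in the HA and TY1 lists of the WT clone. The 2 HA lists lay on one side of the 2 TY1 lists in each of these counts. An exact permutation of the tags over 4 lists cannot go below the two-sided p of 0.333 found for each of them, nor below 0.5 with the lists of a clone paired. Those p-values are the floor set by the number of arrangements and do not measure the spread between clones.

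**Figure D1:**
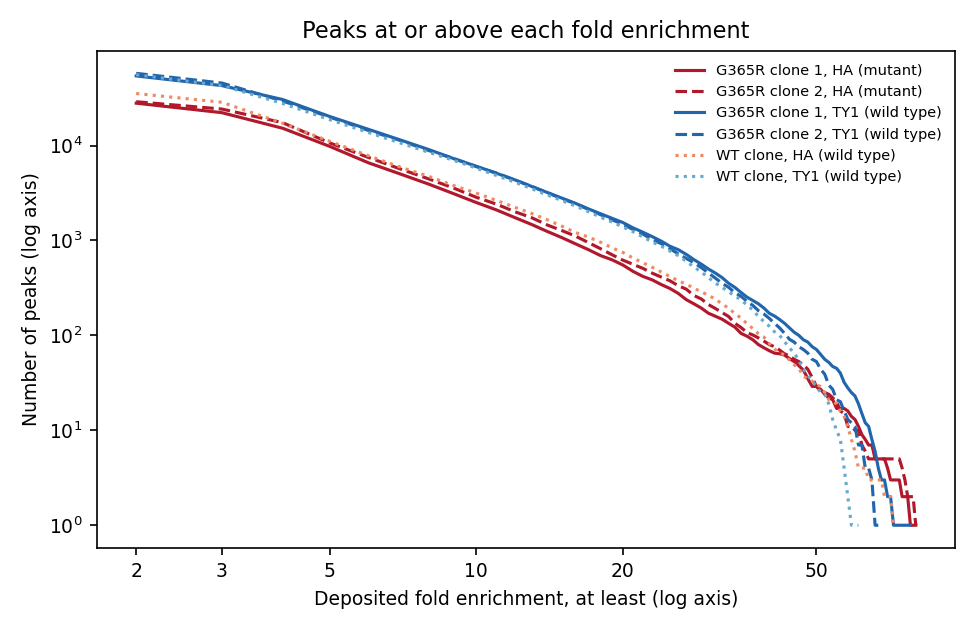
Number of peaks (vertical, log axis) at or above each deposited fold enrichment (horizontal, log axis) in the 4 G365R lists and the 2 lists of the WT clone. Both red HA curves run below both blue TY1 curves at a fold of 5 (9786 and 10657 against 20211 and 19918 peaks) and cross them at the far end, where the highest HA folds are 89.3 and 80.3.

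HA peaks were also narrower. Median widths were 390 and 385 bp for HA and 428 and 405 bp for TY1, a difference of -29 bp (SD between clones 12.7, n = 2), and the WT clone gave -32 bp. With every list reduced to its strongest 30563 peaks by deposited −log10 p, the length of the shortest list, the difference was -177.5 bp in G365R and -139 bp in the WT clone. This cut left the G365R HA lists nearly whole, with a weakest −log10 p of 3.77 and 3.52. The G365R TY1 lists kept only peaks of at least 16.0 and 15.3, and their median widths rose to 580 and 551 bp. The differences at equal length thus set nearly all HA peaks against the stronger TY1 peaks. In those equal lists the median fold was lower for HA by a mean of 1.61 in G365R and by 1.32 in the WT clone, written as HA minus TY1 of -1.61 and -1.32. The HA and TY1 lists did not overlap in either measure at equal length, at the same exact p of 0.333. Median fold over the whole lists did not separate the tags, at 3.99 and 4.27 for HA and 4.13 and 3.94 for TY1.

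Nearly every wild-type site of the strongest decile had a mutant peak, and the share fell steadily with strength. Summit windows of 100 bp on each side were merged over all 14 lists into regions, and a list holds a region when 1 of its summits falls there. Of the TY1 regions, 46.3% in the first clone and 42.9% in the second were also in the HA list of that clone, and 52.3% in the WT clone. In the strongest decile (10% of the list) of the TY1 regions by −log10 p the share was 99.4% and 99.3%. In decile 3 it was 78.7% and 72.8%, in decile 5 41.4% and 36.1%, and in the weakest decile 10.2% and 8.78%. Sites without an HA peak were thus found in the stronger deciles too. The WT clone fell along the same course, with 99.7%, 81.7%, 49.2% and 17.0% in deciles 1, 3, 5 and 10. It lay above both G365R clones in every decile. That gap, which rests on 1 WT clone, was not tested.

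In the other direction most mutant sites were wild-type sites. Of the HA regions, 86.9% and 86.6% were in the TY1 list of the same clone, and 83% in the WT clone. The share ran from 99.4% in the strongest decile of both clones to 60.6% in the weakest decile of the first clone, and in the WT clone from 99.7% to 48.9%. The higher share in G365R goes with shorter HA lists. At equal list length the mean share of TY1 regions also in HA was 71.1% and of HA regions also in TY1 71.2%, and the WT clone gave 73.5% in each direction.

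**Figure D2:**
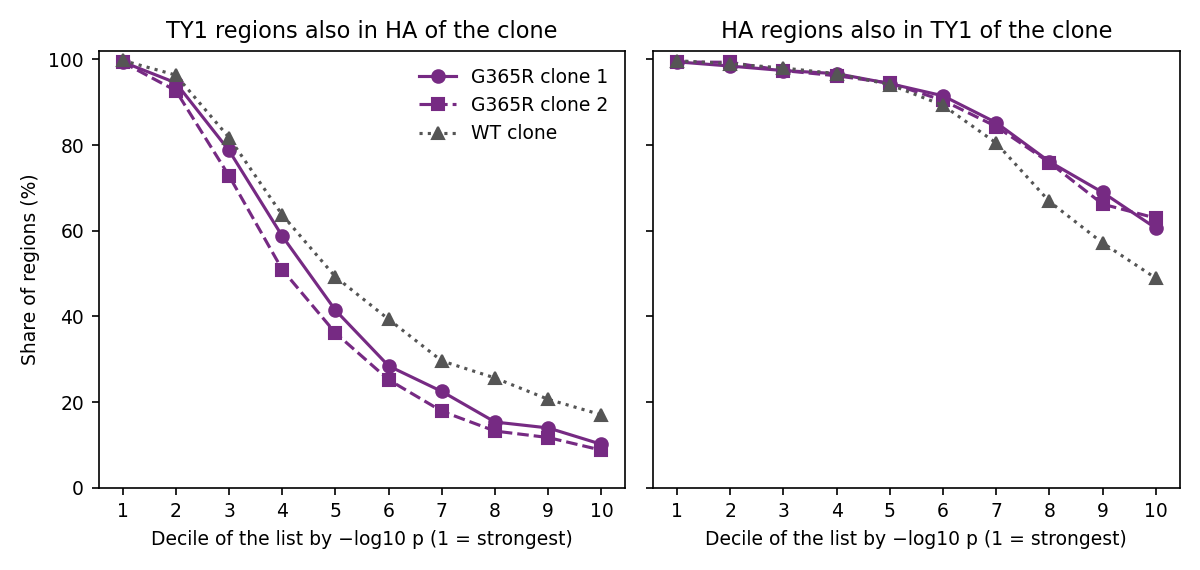
Share of regions (vertical, %) that the list of the other tag of the same clone also holds, by decile of the list ranked by −log10 p (horizontal, 1 is the strongest), for TY1 regions on the left and HA regions on the right, with 1 line per clone. On the left the G365R clones fall from 99.4% and 99.3% to 10.2% and 8.78% and stay below the WT clone, which ends at 17.0%.

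The 4 lists together held 79307 regions. Of these, 19767 (24.9%) were in all 4 lists, 14985 (18.9%) were TY1-only (in the TY1 lists of both clones, without an HA list), and 459 (0.579%) were HA-only in the same sense. Regions that marked a clone rather than a tag were 898 in both lists of the first clone only and 1383 in both lists of the second clone only. These numbers follow the unequal lengths of the lists. At equal length 17200 regions were in all 4 lists, 2900 were TY1-only and 1791 HA-only, so that the ratio of TY1-only to HA-only regions shrank while its direction was kept.

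Of the regions shared by all 4 lists, the 5 with the highest median fold were in all 14 lists of the series. The strongest was chr11:36706501-36706771, with folds of 89.3 and 79.9 for HA and 78.4 and 58.2 for TY1, and 43.4 and 36.2 for HA and TY1 in the WT clone. At chr7:92384420-92384731 the folds were 75 and 75.1 for HA and 69.7 and 65.2 for TY1, and 38.1 and 31.3 in the WT clone. At both places HA exceeded TY1 in every clone, and the G365R folds lay above those of the WT clone.

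The next 3 followed the same order of tags. At chr10:125532440-125532768 HA gave 77.7 and 80.3 and TY1 64.2 and 62.3, with 72.3 and 54.6 in the WT clone. At chr9:83617272-83617498 the values were 70.8 and 74.4 for HA, 67 and 65.9 for TY1, and 71.2 and 56.5 in the WT clone. The region chr10:1295988-1296256 had 69.7 and 76.5 for HA, 56.1 and 52.3 for TY1, and 35.3 and 31.0 in the WT clone. In all 5 regions the HA fold was the higher of the pair in each G365R clone and in the WT clone, which had no mutant protein. They were selected on the median of all 4 lists, and their order of tags has no test of its own.

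The TY1-only regions were weak wild-type sites far from any mutant summit. Their median fold was 3.42 and 3.11 in the TY1 lists, against 6.90 and 6.59 for the regions of all 4 lists, and 13 of the 14985 stood in the strongest decile of each TY1 list. The nearest HA summit was a median 17359 bp away in the first clone and 18188 bp in the second, and a whole HA peak overlapped 187 of them (1.25%). Of these regions 79.6% were also in the TY1 list of the WT clone and 25.3% in its HA list. In the WT clone 56.0% (95% Wilson interval 55.2% to 56.8%, counting error only) were in the TY1 list and not in the HA list, that is, with the same pattern on wild-type protein alone, against 30.4% of all 45027 regions in both TY1 lists, and 3533 (23.6%) were in both WT lists.

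The 5 strongest TY1-only regions were of 2 kinds. At chr2:143886749-143886987 (TY1 folds 16.4 and 20.4) and chr3:30686246-30686477 (14.5 and 13.7) a whole HA peak overlapped, with its summit 336 to 578 bp away. Those 2 regions are offsets of summits within a shared peak rather than absent HA peaks. The other 3 had no HA peak nearby.

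Of these, chr5:147202319-147202565 had TY1 folds of 16.0 and 16.1, with the nearest HA summit 17500 bp away, and folds of 5.55 for HA and 15.0 for TY1 in the WT clone. At chr5:101014306-101014566 the TY1 folds were 14.7 and 9.94, the WT clone had 5.37 for HA and 11.7 for TY1, and every one of the 14 lists except both G365R HA lists held it. At chr19:53095680-53095938 the TY1 folds were 11.7 and 11, with 3.75 and 6.51 for HA and TY1 in the WT clone. At each of the 3, the wild-type protein under the HA tag was called in the WT clone, at a lower fold than under TY1.

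The HA-only regions were few and mostly overlapped wild-type peaks. A whole TY1 peak of the clones overlapped 338 of the 459 (73.6%), and the nearest TY1 summit was a median 710 and 703 bp away. Their median fold was 3.69 and 3.92, with 7 and 8 in the strongest decile of the HA lists. In the WT clone 46.0% were in the HA list (95% Wilson interval 41.5% to 50.5%), 24.8% in the TY1 list and 45.3% in neither. The HA-without-TY1 pattern was found for 29.8% in the WT clone, against 2.13% of all 21064 regions in both HA lists.

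The 5 strongest HA-only regions all overlapped whole TY1 peaks. They were chr7:64147681-64147919 (HA folds 14.1 and 13.9), chr6:119030495-119030749 (12.2 and 15.0), chr1:209942873-209943117 (13.0 and 12.7), chr2:143886274-143886632 (9.92 and 10.4) and chr5:81148590-81148931 (10.9 and 7.99). Their nearest TY1 summits were 396 to 1081 bp away. The region on chromosome 2 lies next to the strongest TY1-only region, and with windows of 250 bp the 2 merge into 1 region of all 4 lists. Of the 459 regions, 121 were free of any TY1 peak, and 4 of those had a median fold of 5 or more in the HA lists. None of the 121 reached a median fold of 10, beside 12 of the 14798 TY1-only regions free of any HA peak. The strongest of them, chrX:78455827-78456027, had HA folds of 8.07 and 5.21 and was in no other list of the series.

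How many G365R HA lists held a wild-type site went with whether the WT clone held it under HA. Of the 45027 regions in both TY1 lists, 33.3% were in neither HA list, 22.8% in 1 and 43.9% in both. The WT HA list held 25.3%, 53.9% and 91.4% of these classes, and the WT TY1 list 79.6%, 89.0% and 98.0%. The WT HA share was lowest at the sites that neither G365R HA list held. At equal list length the WT HA shares were 28.7%, 54.3% and 91.8%, in the same order. The classes were chosen on the G365R lists and the WT lists took no part in that choice.

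A narrower set was missing from both mutant lists and from no other list. Of 14095 regions in the other 12 lists of the series, 832 (5.90%) were in neither G365R HA list. For the other pairs of lists of 1 genotype and tag, 4 to 52 regions were missing in this way. At equal list length, an alternative chosen after seeing the data, the number was 228 of 9866 (2.31%), and 7 to 70 for the other pairs. The WT HA list, which has no second clone, was alone in lacking 766 regions (6.35%), beside 818 (6.76%) and 1154 (9.27%) for the single G365R HA lists. At equal length the WT HA list lacked 635 (6.77%) and the G365R HA lists 285 (3.15%) and 602 (6.44%), beside 373 (4.09%) for the second R232fs HA list, 227 (2.53%) for the second R232fs TY1 list and 49 to 161 for the other 9 lists.

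The regions missing from both G365R HA lists had a low fold in the WT HA list, a median of 2.69 against 3.85 over that whole list. In the WT TY1 list their median of 3.82 was close to that of the whole list, 3.84. In the G365R TY1 lists it was 3.70 and 3.35, against 4.13 and 3.94 over the whole lists. Whole lists also hold weak peaks that few other lists share. At the 11291 regions of all 14 lists the medians were 4.50 in WT HA and 6.08 in WT TY1. In the G365R TY1 lists they were 6.93 and 6.30 there. Beside these widely shared regions, the missing regions had a low fold under both tags. The strongest by G365R TY1 fold was the region chr5:101014306-101014566 described above. Next came chr20:542438-542712, with TY1 folds of 10.4 and 8.82 and WT folds of 4.84 for HA and 7.39 for TY1. These regions were selected on their absence from the HA lists, so that the absence itself carries no test.

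Among the strongest peaks, G365R lists of the same tag shared more regions between the clones than HA and TY1 shared within a G365R clone. With the 1000 strongest peaks of each list, the HA lists of the 2 clones shared 83.3% of regions and the TY1 lists 79.1%, while HA and TY1 shared 70.3% in the first clone, 72.6% in the second and 74.6% in the WT clone. Lists of the same tag did not always share more when the WT clone was 1 of the pair, since TY1 of the first G365R clone and of the WT clone shared 71.5%, below the second G365R clone and the WT clone. With 5000 peaks the values had moved together, to 81.1% for the 2 HA lists, 81.1% for the 2 TY1 lists, 78.0% and 79.3% within the clones and 81.7% in the WT clone. At 30563 peaks the HA lists of the 2 clones shared 68.0%, less than HA with TY1 of the same clone at 71.4% and 70.2% and the TY1 lists at 80.3%. HA of the second clone with TY1 of the first shared 65.3%, and HA of the first clone with WT HA 67.4%. The order of HA with HA and HA with TY1 thus reversed between the strongest peaks and the full length of the HA lists.

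**Figure D3:**
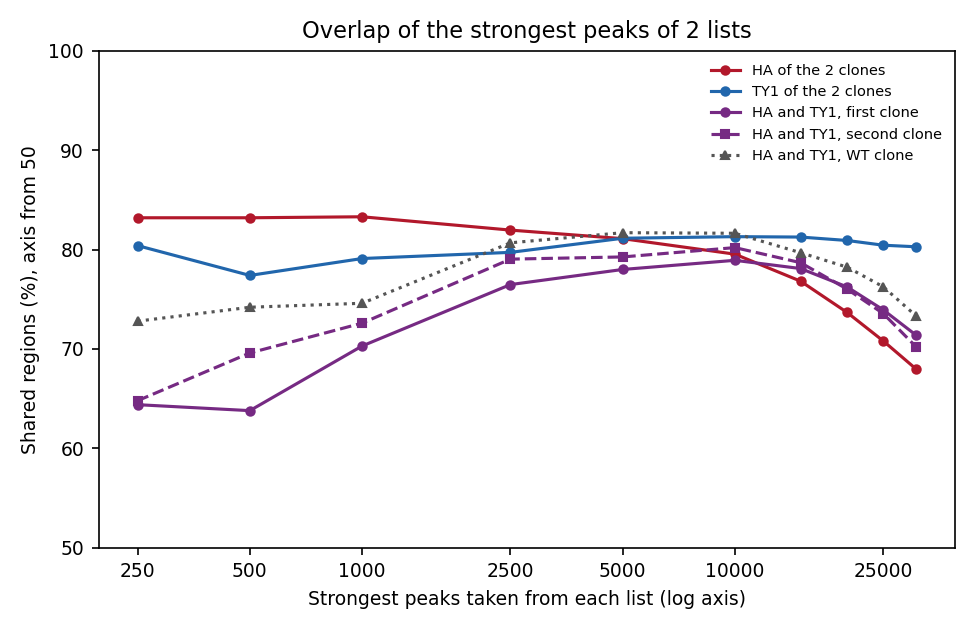
Share of regions that 2 lists have in common (vertical, %, axis from 50) when the same number of strongest peaks by −log10 p is taken from each (horizontal, log axis). At 1000 peaks the same-tag pairs (83.3% and 79.1%) lie above HA with TY1 of a G365R clone (70.3% and 72.6%), and at 30563 peaks the pair of HA lists, at 68.0%, is the lowest of the 5 pairs drawn.

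Mutant and wild-type summits lay close together at the regions that all 4 lists held. Regions were merged from windows of 100 bp on each side of a summit. Summits far apart thus tend to fall in separate regions and leave this set, which limits the distances seen. At the regions of all 4 lists the median distance between HA and TY1 summits was 27 bp in the first clone and 28 bp in the second, a mean of 27.5. HA summits of the 2 clones were 31 bp apart and TY1 summits 21 bp, so the distance between the proteins lay between the distances of each protein from itself. At the 17905 regions that the WT lists held too, the medians were 26 and 27 bp in the G365R clones and 23 bp in the WT clone. The signed median was 0 or -1 bp, with no shared shift to one side.

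At those 17905 regions the mutant protein had the lower fold at most sites. The median ratio of HA to TY1 fold was 0.659 in the first clone and 0.721 in the second, and 0.729 in the WT clone. The distance from the WT clone to the second G365R clone was thus smaller than the distance between the G365R clones. HA fold was the higher one at 6.04% and 10.3% of the regions, and at 9.12% in the WT clone.

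Ranked by the mean of the −log10 p ranks in the WT lists, the strongest decile had ratios of 0.732 and 0.817, decile 6 0.622 and 0.685, and the weakest decile 0.747 and 0.797. The WT clone, which set the ranking, had 0.876, 0.685 and 0.756. In the 100 strongest regions the ratios were 0.896 and 0.999, and 1.06 in the WT clone. All 3 clones followed the same curve, high at the ends and low in the middle. A region had to hold a peak in all 6 lists, so weak regions without an HA peak leave this set. From decile 7 to decile 10 the median HA fold went from 3.89 to 4.09 and from 4.05 to 4.22 in the G365R clones. TY1 fell there from 6.09 to 5.19 and from 5.78 to 5.06. In the WT clone HA fell from 4.13 to 3.40 and TY1 from 5.72 to 4.37. The part of this selection in the rise at the weak end was not tested. In the strongest decile both G365R clones lay below the WT clone, and from decile 7 on the second clone lay above it. These gaps, which rest on a single WT clone, were not tested.

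**Figure D4:**
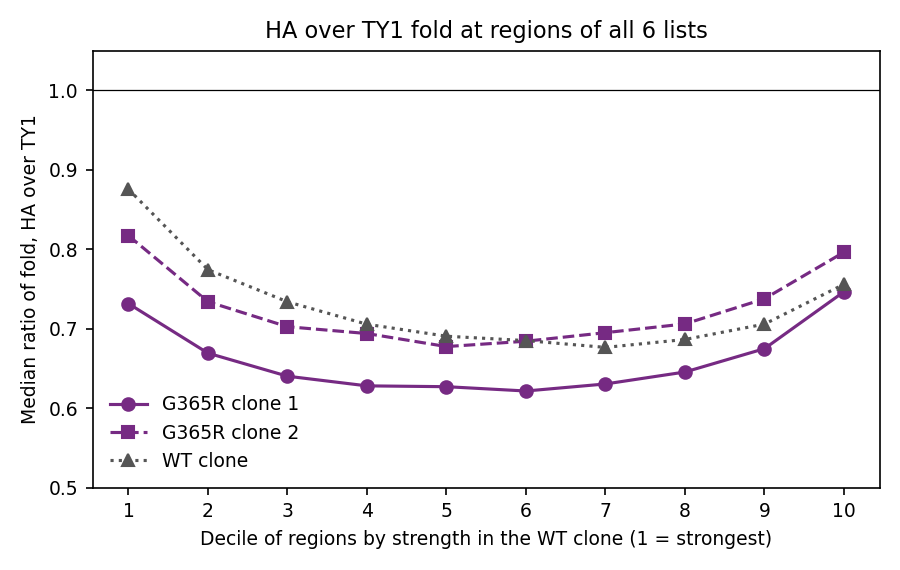
Median ratio of HA to TY1 fold (vertical, axis from 0.5) at the 17905 regions of all 6 G365R and WT lists, by decile of strength in the WT clone (horizontal, 1 is the strongest), with 1 line per clone and a thin line at equal folds. The strongest decile has 0.732 and 0.817 in G365R and 0.876 in the WT clone, and the middle deciles are lower in each.

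Relative strength was then compared at the 11291 regions of all 14 lists. Folds were converted, list by list, from ranks to normal scores, in which 1 unit is 1 SD of a list, and HA minus TY1 was fitted with limma over 8 groups of genotype and tag (Benjamini-Hochberg adjusted p under 0.05 over all regions). Without clone as a term 0 regions (percent called 0) were called, with 590 at an unadjusted p under 0.05. With clone as a term 461 regions (4.08%) were called, 280 higher (2.48%) and 181 lower (1.6%) for the mutant protein, and 2508 had an unadjusted p under 0.05. In the fit with clone paired, the calls depended on both clones: 2 and 1 regions were called without the first and the second G365R clone, where 1 list per tag remains and is assumed to vary like the other groups. Without the first or the second Y287X clone, whose lists feed only the estimate of spread, 148 and 126 were called. Ranks of −log10 p in place of fold, with clone as a term, called 2481 regions (22%), 1017 higher (9.01%) and 1464 lower (13%), and ranks of summit pileup 3083 (27.3%), 1411 higher (12.5%) and 1672 lower (14.8%). The number of calls thus depended on the measure ranked. More regions were called higher than lower by fold, and more lower than higher by −log10 p and by pileup.

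The regions called higher were broad under both tags, and the regions called lower were narrower, more so in HA than in TY1. In the former the median fold was 7.29 and 7.35 for HA and 6.25 and 5.42 for TY1, and in the latter 4.06 and 4.2 for HA and 11.3 and 10.2 for TY1. Median HA widths were 796.5 and 785 bp in the regions called higher and 410 and 411 bp in those called lower, beside 502 and 493 bp over all regions tested. Median TY1 widths were 932.5 and 855.5 bp, and 660 and 651 bp, beside 707 and 686 bp. In the WT clone HA and TY1 had 817 and 862.5 bp in the regions called higher. They had 419 and 642 bp in those called lower. The deposited fold itself was higher for HA in both clones at 211 of the 280 regions called higher, where 2.89% of all regions tested were so, and lower in both clones at all 181 called lower, where 88.7% of all regions were so. A higher score thus meant a smaller deficit of HA, not a higher fold, in part of the regions.

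Local background moved with these calls. In the WT lists its median was 37.6 fragments at the regions called higher, 13.5 at those called lower and 20.1 over all regions. Of the decile of regions with the lowest background 0.265% were called higher and 1.59% lower, and of the decile with the highest 4.87% and 0.443%. The part of background in the calls was not tested.

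At most of the called regions the WT clone differed in the same direction. Its HA minus TY1 score had the sign of the call at 273 of the 280 regions called higher (97.5%) and at 171 of the 181 called lower (94.5%), against 70.9% over all regions tested. Across the 11291 regions the difference in the first clone correlated with that in the second at r = 0.491, and with that in the WT clone at 0.486, and the second clone with the WT clone at 0.476. These are correlations across regions, which share libraries and background and are no independent replicates. The G365R difference minus the WT difference was called at 0 regions in both fits (45 and 405 at an unadjusted p under 0.05 without and with clone as a term). By ranks of −log10 p with clone as a term it was called at 1 region (0.00886%), higher in G365R. Of the called regions, 22 of those higher (7.86%) and 37 of those lower (20.4%) had an unadjusted p under 0.05 for it with clone as a term, against 3.59% of all regions tested. They were chosen on the G365R difference, which is part of that contrast, so these shares support nothing. With 1 WT clone, a region that misses the threshold is not shown to be alike in G365R and WT.

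**Figure D5:**
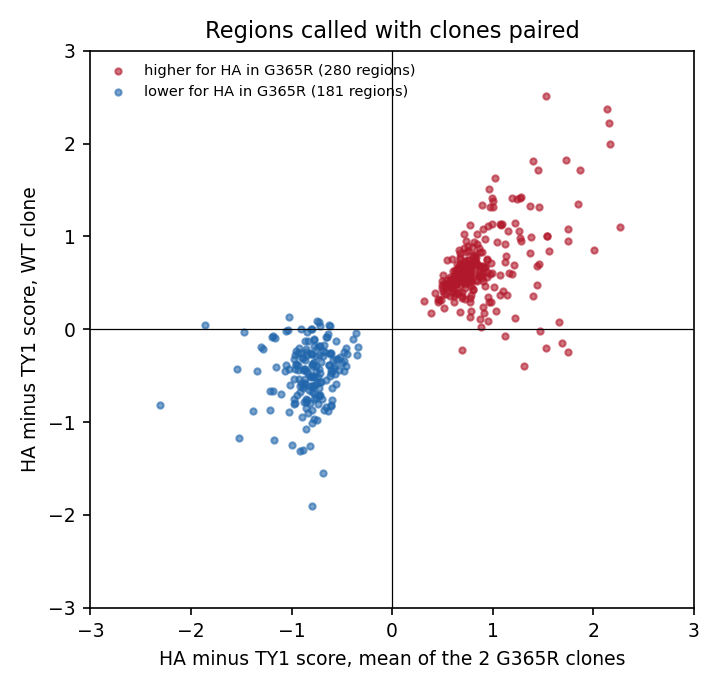
HA minus TY1 score in the WT clone (vertical) against the mean of the 2 G365R clones (horizontal), in units of the normal score, for the 461 regions called with clones paired. Points of the same sign in both lie in the upper right (273 of 280) and lower left (171 of 181).

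The largest relative gains of the mutant protein were at peaks of low fold, most of them over a high local background. At chr1:31128228-31128543 the folds were 3.72 and 2.69 for HA against 2.45 and 1.87 for TY1, and 3.71 and 3.09 in the WT clone. The score difference was 2.27 ± 0.21 (SE; limma adjusted p = 0.00620 with clone as a term and 0.905 without). The WT clone moved the same way there, by 1.11. At chr5:79947135-79947460 the folds were 3.66 and 3.41 against 2.49 and 2.12, a difference of 2.16 with 2.00 in the WT clone. Local background in the G365R lists was 41.2 to 80.9 fragments at these 2 regions. Over all regions tested its medians in those lists were 12.9 to 18.3.

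The remaining 3 of the 5 highest were of low fold as well. Local background in the G365R lists was 11.2 to 42.4 fragments at the region on chromosome 5. It was 93.8 to 133 on chromosome 18 and 37.9 to 59.1 on chromosome 21. They were chr5:137514175-137515001 (2.16, WT clone 2.22), chr18:108129-108377 (2.14, WT clone 2.38) and chr21:43226175-43226476 (2.01, WT clone 0.85), and no G365R list had a fold above 3.07 at any of them. Limma adjusted p-values with clone as a term were 0.0255, 0.00949 and 0.0323, and without it 0.739, 0.943 and 0.945. All 5 regions were relatively stronger under HA in the WT clone as well. At chr5:137514175-137515001 the call was lost when summit pileups were ranked in place of folds (adjusted p = 0.569).

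The largest relative losses were also at modest folds. As at most of the gains, local background at these 5 regions lay above the median of all regions tested in each G365R list. It was 33.9 to 56.2 fragments at the region on chromosome 8 and 54.3 to 74.6 on chromosome 14, beside medians of 12.9 to 18.3. At chr8:28747488-28747972 the folds were 1.8 and 1.51 for HA against 6.16 and 4.63 for TY1, and 2.25 and 4.97 in the WT clone. The score difference was -2.31 ± 0.20 (SE; limma adjusted p = 0.00501 with clone as a term and 0.143 without), and -0.81 in the WT clone. At chr14:60558818-60559115 the folds were 1.46 and 1.74 for HA against 3.64 and 4.27 for TY1, a difference of -1.86 (limma adjusted p = 0.0168 and 0.834). In the WT clone the score difference was 0.05, of the opposite sign, whereas the other 4 lowest regions had the sign of the call there. The G365R difference minus the WT difference at this region was -1.91 (limma adjusted p = 0.9999 with clone as a term).

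The other 3 were chr1:198126470-198127269 (-1.54, WT clone -0.42), chr11:102187959-102188312 (-1.53, WT clone -1.17) and chr10:70715636-70716118 (-1.48, WT clone -0.03). Their HA folds were 1.51 to 2.32 and their TY1 folds 3.73 to 7.70. They were selected on a lower HA score in both clones, so this separation follows from the choice. Over all regions tested, HA fold was lower in both clones at 88.7%. Limma adjusted p-values with clone as a term were 0.0458, 0.0255 and 0.0426, and without it 0.905, 0.943 and 0.861. Ranking of summit pileups ended the calls on chromosomes 11 and 10 (adjusted p = 0.437 and 0.738), and centred log2 fold ended the call on chromosome 10 (adjusted p = 0.0518). Local background in the G365R lists was 18.25 to 27.4 fragments on chromosome 1, 27.6 to 43.0 on chromosome 11 and 32.8 to 48.6 on chromosome 10.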

How the data were processed

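The deposited files are narrowPeak lists, with the peaks of each library in a file of its own. The tools, per the submitters' processing notes, were CASAVA 1.8, Bowtie2 2.2.9 and MACS2 2.2.7.1 and the build was hg19. Caller settings and matched controls: not given in the sources used here. The authors deposited, per peak, the linear ratio of fold enrichment, p-value and q-value as −log10, a score and a summit offset. Fold and p are the authors' own values.

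Peaks on chromosomes 1 to 22 and X were kept; 1.80% to 2.17% of a G365R list lay elsewhere. No list of artefact-prone regions was applied. Merging gave 190855 regions. Pileup and background were solved from fold and −log10 p with a Poisson formula and a pseudocount of 1 (tested on simulated data, 100% of 2000 recovered). Equal length meant the strongest 30563 peaks. Normal scores were fitted with limma 3.58.1 in R 4.3.3, with 6 residual degrees of freedom, or 3 with clone as a term. Same-numbered lists share a clone name in the deposited data, and deviations from the group means correlated at r = 0.503 in G365R, 0.792 in R232fs and 0.702 in Y287X, so the numbers pair the samples. Scores were simulated for HA minus TY1 in G365R over 11291 regions, with the same spread of noise for every region and genotype. Sets of 50 regions were shifted by 0.5, 1, 1.5 and 2. The fit without the clone term found 0%, 0%, 18% and 78% of them. The fit with it found 20%, 98%, 100% and 100%, where 8 unchanged regions were also called. The median changes of the calls in the data, 0.77 and -0.80, lay in size between the shifts of 0.5 and 1. Those medians are taken over regions that passed the threshold, so they do not tell what share of real changes was found. The relevant depth is unknown, so intervals cover counting error only. Other steps used Python 3.11.15, numpy 2.4.6, pandas 2.3.3, scipy 1.17.1 and matplotlib 3.10.9.

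Regions named are, for each pattern of lists, the 5 of highest median fold, and for the limma comparison the 5 highest and 5 lowest by change among those past the threshold without the clone term, or with it if that calls none, and of 1 sign in both clones. The regions missing from both G365R HA lists and the strongest HA-only region free of a TY1 peak were chosen after their values were seen. The members and lists were chosen with earlier results of these data known. Alternatives were list length, wider windows, whole peaks, stricter q and fold, other ranked measures, the 6 lists of G365R and WT alone, and leaving out each clone. Gene lists and motifs were not analysed, since the gene table and promoter sequences at hand have another build than the lists.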

Additional observations from a re-analysis of the deposited data

Results flagged for a closer look

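The ratio of HA to TY1 peaks per list, 0.514 in the G365R clones (0.533 and 0.495), lies on the other side of 1 from the R232fs clones, where HA lists were the longer ones at 1.94 and 1.46. Both clones of each of these 2 genotypes lay on 1 side, and the difference between them was not tested. The Y287X clones lay on either side of 1, at 1.04 and 0.829.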

How the results depend on the processing

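Ratios of peaks and of peaks of fold 5 or more, and the difference in width, kept their direction under every alternative run. The HA-only count was 1791 at equal list length, 291 with 250 bp windows, 126 with whole peaks merged, 88 with a −log10 q of at least 10 and 4011 to 4069 with 1 clone left out; its WT share was 20.6% with whole peaks, 35.2% with the stricter q and 12.7% to 13.0% with 1 clone left out. The TY1-only count was 2900 at equal length and 30726 to 35187 with 1 clone left out, with WT shares of 53.8% at equal length, 62.1% with the stricter q and 40.7% to 42.4% with 1 clone left out. A count from 1 clone takes in every region of that clone with the pattern. The share of TY1 regions also in HA was 71.1%, 47.3% and 39.4% at equal length, with whole peaks and with the stricter q, and that of HA regions also in TY1 was 71.2%, 92.2% and 96.0%, and 90.6% with 250 bp windows. Summit distance was 24.5 bp in regions of all 14 lists and 25.5 bp at equal length. Regions missing only from both G365R HA lists fell to 228 at equal length.

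The limma count for HA minus TY1, 0 without pairing, was 461 with the replicate block, 47 and 2481 by ranks of −log10 p without and with the block (22% called with it), 746 and 3083 by summit pileup (27.3%), 0 and 524 by centred log2 fold, and 2 and 283 with the 6 lists of G365R and WT. With 1 clone left out it stayed 0 without the block and with it was 447 and 385 without the R232fs clones, 148 and 126 without the Y287X clones, 2 and 1 without the G365R clones and 485 without the WT clone, a range of 0 to 485 in all. Of the regions called higher and lower with the block, 256 and 176 were also called in that direction by −log10 p and 212 and 166 by pileup, and 4 called higher were called lower by pileup. The G365R minus WT count was 0 except for 1 region by ranks of −log10 p with the block; leaving out the WT clone removes that comparison. The block changed no other call, and the cause of these shifts was not tested. Unknown depth and 1 WT clone limit every comparison with WT.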

Other observations

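The TY1-only share of the regions in both G365R TY1 lists varied by chromosome. It was 33.3% over all chromosomes, lowest on chromosome 13 at 24.98% and highest on chromosomes 19 and X at 42.9% and 40.0%. Chromosome 19 held 714 TY1-only regions beside 611 of all 4 lists, and chromosome 13 held 373 beside 747. Per clone, the share of TY1 regions absent from HA was 47.4% and 56.0% on chromosome 13 and 61.1% and 60.6% on chromosome 19, where the WT clone had 41.0% and 59.6%. Over the 23 chromosomes these shares correlated with r = 0.815 between the G365R clones, 0.915 between the first clone and the WT clone and 0.760 between the second and the WT clone. Spearman's rho was 0.787, 0.656 and 0.701 for these pairs, so that by rank the first clone with the WT clone was the lowest of the 3. Both are given as a description of chromosomes that share libraries and base composition.

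At the called regions, the mean difference of the truncating clones had the sign of the G365R difference at 51.4% of those called higher and 22.7% of those called lower, against 45.9% over all regions tested. This reads the R232fs and Y287X lists, which share the estimate of spread with the G365R comparison, and the difference between genotypes was not tested for it.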
